A study of Mus musculus with 6 samples.

Results

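The interferon-stimulated genes described here are 38 mouse genes that respond to type I or type II interferon, listed by symbol and looked up in the deposited gene tables. All 38 were among the 48368 gene symbols of the tables, and 35 of them were among the 17584 genes with enough counts to be tested. They were measured by RNA-seq in cancer-associated fibroblasts, that is fibroblasts taken out of a tumour, here mouse mammary tumours, and grown in serum-containing medium. All tumours came from MMTV-PyMT mice, in which a mouse mammary tumour virus promoter drives the polyomavirus middle T antigen in mammary epithelium. The 3 libraries labelled KO were from Hic-5-/- tumours and the 3 labelled HET from Hic-5+/- tumours, so both groups carried the transgene and a disrupted Hic-5 allele, and no wild-type library was among those analysed. The protocols name no interferon or other agent added to the cultures, and the sources used here give neither the age nor the strain of the mice. The series is described as technical triplicates, and no label says which libraries came from separate mice or cultures, so a p-value here reflects library-to-library spread and may be technical.

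Interferons are secreted proteins, and cells release those of type I after sensing foreign or misplaced nucleic acid. Type I interferons bind the receptor chains Ifnar1 and Ifnar2, the kinases Jak1 and Tyk2 are activated, and the complex ISGF3, which contains Stat2 and Irf9, binds interferon-stimulated response elements in promoters. Interferon-gamma acts at another element, the gamma-activated site. The induced genes encode sensors, nucleases, membrane-bound restriction factors and modifiers that limit viruses, and fibroblasts are among the cells long known to respond in this way.

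None of the 35 tested interferon-stimulated genes differed by label beyond the spread between libraries. A large part of the set stood high in a single library, KO replicate 2, and without that library the fitted fold change, KO over HET, was below 0 for 32 of 35 genes. For 26 of the 35 tested genes KO replicate 2 was the highest of the 6 libraries, against 26.3% of all tested genes. The oligoadenylate synthetases Oas1a, Oas1g and Oasl2, and Isg15, Usp18, Rtp4 and Ifi44 stood several-fold above every other library there, whereas the Ifit genes and Gbp2 were highest in HET replicate 2 or 3. KO replicate 2 was singled out after its values had been seen, so its levels are given as a description with no test. The fit without it is a description too, since leaving out a library picked for its high levels lowers the KO side.

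The libraries held 24954273 to 42470598 estimated counts each, and levels are given as CPM, which are counts relative to the library total scaled by TMM factors. At these depths 3 counts correspond to 0.0683 to 0.119 CPM, which covers counting error only. Tgfb1i1, which encodes Hic-5, stood at 90.4, 0.233 and 156 CPM in KO replicates 1 to 3, against 223, 348 and 125 CPM in HET replicates 1 to 3. Its transcript was therefore nearly absent from KO replicate 2 only, and KO replicates 1 and 3 carried it, so the groups are called throughout by the labels of their libraries. The fibroblast gene Col1a2 stood at 876, 0.491 and 577 CPM in KO replicates 1 to 3, against 5109, 1317 and 1009 CPM in HET replicates 1 to 3. Thy1, another fibroblast gene, stood at 976, 0.982 and 169.7 CPM in KO replicates 1 to 3, against 75.7, 792 and 1573 CPM in HET replicates 1 to 3. KO replicate 2 thus nearly lacked these transcripts. It also stood low for Col1a1, at 2.56 CPM against 274 to 4948 CPM in the other libraries, and for Dcn, at 0.775 CPM against 55.0 to 370 CPM. For Lum, S100a4, Pdgfra, Pdgfrb and Sparc it was the lowest library as well. Col3a1, Vim, Postn, Fn1 and Fap were lowest in another library. Sparc, the marker of the list with the highest level in any library, stood at 1183, 1126 and 1989 CPM in KO replicates 1 to 3, against 9726, 4928 and 2723 CPM in HET replicates 1 to 3. Postn stood at 13.3, 439.8 and 83.4 CPM in KO replicates 1 to 3, against 1307, 406 and 53.8 CPM in HET replicates 1 to 3. Fn1, which encodes fibronectin, stood at 1263, 4176 and 2104 CPM in KO replicates 1 to 3, against 4672, 4384 and 2207 CPM in HET replicates 1 to 3. KO replicate 2 lay next to KO replicate 1 for Sparc and within the range of the other libraries for Postn and Fn1. The 14 fibroblast markers of the list summed to 9738, 9006 and 10770 CPM in KO replicates 1 to 3, against 33750, 19290 and 14550 CPM in HET replicates 1 to 3. Fn1, Vim and Sparc made up most of the sum in KO replicate 2, so it hides the near absence of Col1a1, Col1a2, Dcn and Thy1 there. Col1a2, Thy1, Postn, Fn1 and the other fibroblast markers named here except Sparc were picked from the marker list after their values had been seen. Krt19, the epithelial marker with the highest level in any library, stood at 27.2, 0.542 and 17.8 CPM in KO replicates 1 to 3, against 64.1, 13.0 and 16.2 CPM in HET replicates 1 to 3. Krt18, chosen after its values were seen, stood at 0.228, 37.9 and 2.93 CPM in KO replicates 1 to 3, against 0.390, 0.882 and 0.549 CPM in HET replicates 1 to 3. These keratins went opposite ways, with KO replicate 2 lowest for Krt19 and highest for Krt18. Of 8 tested epithelial markers, 7 were highest in KO replicate 2, each at least 2-fold above the next library, against 26.3% and 3.93% of all tested genes. The 12 markers of the list summed to 103 CPM there, against 19.3 to 70.5 CPM in the other libraries. Krt19 was the larger part of that sum in every library except KO replicate 2, so the sum understates the excess of the other markers there. The summed level of 26 leukocyte markers was 29.5, 17.9 and 1213 CPM in KO replicates 1 to 3, against 31.9, 1724 and 51.8 CPM in HET replicates 1 to 3. In RNA from whole cultures, fewer cells of a type and less RNA per cell cannot be told apart.

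Promoters of interferon-stimulated genes are known for the response element, and 4 are shown because they carry its core and belong to genes that differed most between libraries. They were the genes with the largest range of log2 CPM among those with a match, 1 per gene family. Each runs from 250 bases before to 50 bases after the annotated start, 5′ to 3′ on the gene's strand (RefSeq, GRCm38.p6). Capitals mark matches to the core of the element, GAAA, any 2 bases and GAAA again, or to its reverse complement, TTTC, any 2 bases and TTTC. Oas1g lies at chr5:120887564-120887863 on the minus strand, Isg15 at chr4:156200769-156201068 on the minus strand, Trim30a at chr7:104465144-104465443 on the minus strand and Ifit1 at chr19:34640639-34640938 on the plus strand.
Oas1g: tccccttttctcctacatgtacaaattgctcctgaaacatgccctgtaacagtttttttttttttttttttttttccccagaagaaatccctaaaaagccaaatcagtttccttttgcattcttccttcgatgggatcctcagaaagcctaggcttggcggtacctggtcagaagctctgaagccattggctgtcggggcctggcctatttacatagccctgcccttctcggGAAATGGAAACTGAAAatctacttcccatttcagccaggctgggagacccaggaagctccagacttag
Isg15: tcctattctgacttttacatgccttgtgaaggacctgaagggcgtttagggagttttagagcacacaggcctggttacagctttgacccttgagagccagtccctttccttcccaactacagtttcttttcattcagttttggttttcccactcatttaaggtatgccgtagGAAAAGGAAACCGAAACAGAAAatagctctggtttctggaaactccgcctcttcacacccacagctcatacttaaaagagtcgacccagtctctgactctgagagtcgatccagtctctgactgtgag
Trim30a: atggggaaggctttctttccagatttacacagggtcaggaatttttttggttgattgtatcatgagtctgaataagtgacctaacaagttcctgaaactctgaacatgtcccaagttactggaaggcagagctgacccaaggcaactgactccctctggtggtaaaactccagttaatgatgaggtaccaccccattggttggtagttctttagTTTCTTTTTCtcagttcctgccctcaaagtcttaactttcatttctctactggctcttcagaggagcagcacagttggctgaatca
Ifit1: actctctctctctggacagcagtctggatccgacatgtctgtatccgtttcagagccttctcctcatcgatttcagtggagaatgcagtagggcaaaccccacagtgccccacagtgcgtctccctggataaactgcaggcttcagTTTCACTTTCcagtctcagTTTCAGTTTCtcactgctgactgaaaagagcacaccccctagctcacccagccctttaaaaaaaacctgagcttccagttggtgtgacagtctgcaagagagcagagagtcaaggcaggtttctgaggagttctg

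In the Isg15 promoter, 3 matches overlapped end to end and began 78, 72 and 66 bases before the start. The Oas1g promoter held 2 overlapping matches that began 18 and 12 bases before the start. Ifit1 had 2 separate matches on the opposite strand, 104 and 85 bases before the start, and Trim30a had 1 on the opposite strand, 36 bases before it. RefSeq promoters were matched for 28 of the 38 genes. That core, searched on both strands, was in 17 of these 28 (60.7%), against 3.49% of all 27025 promoters of this length in the table and 2.99% of the 10473 that belong to genes tested here. The gamma-activated pattern TTCNNNGAA, its own reverse complement, was in 8 of the 28 (28.6%), against 8.47% of all promoters. KO replicate 2 was the highest for 11 of 15 tested genes with a match and for 9 of 11 without one, with median ratios over the median of the other 5 libraries of 2.69 and 3.82. Over all tested genes it was the highest for 26.3%. A match describes letters in a window and not a bound site.

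By label, edgeR's quasi-likelihood test called none of the 35 genes at an adjusted p under 0.05, and none of all genes tested (0%). Adjusted p-values of the set ran from 0.583 for Gbp2 to 0.998 for Trim30a. At an unadjusted p under 0.05 there were also 0 of the 35 genes, while 8.59% of all tested genes passed that level, 4.3% higher and 4.29% lower in KO. DESeq2 likewise called 0 of the 29 genes of the set to which it gave an adjusted p, the smallest being 0.195 for Ifi44. Over all genes it called 240 of the 15707 with an adjusted p, which is 1.36% of all 17584 tested. To Rtp4 and Dhx58 it gave no p-value. In no tested gene of the set did the KO and HET libraries separate without overlap. Among all tested genes every KO library lay above every HET library in 8.1% and below in 7.42%. The fitted log2 fold change, KO over HET, was above 0 for 24 of the 35 genes, against 50.9% of all tested genes. Its median was 0.33 over the set and 0.01 over all genes.

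That lean towards KO rested on KO replicate 2. This library was the highest for 74.3% of the tested set, against 26.3% of all tested genes. It stood at least 2-fold above the highest of the other 5 libraries for 15 of the 35 genes, against 3.93% of all tested genes. The median ratio of KO replicate 2 to the median of the other 5 libraries was 3.21 over the set and 0.987 over all tested genes. Without it, 32 of the 35 genes then testable had a log2 fold change under 0, against 49.9% of all genes, and the median of the set was -0.68. That library was picked because it stood high in this set, so leaving it out lowers the KO side more here than over all genes. The 49.9% is therefore no fair expectation for the set. Gbp5 entered that fit and Cmpk2 left it, because the filter on low counts was applied again. None passed the adjusted threshold in that fit, the smallest adjusted p by edgeR being 0.950. At an unadjusted p under 0.05 stood 2 of them, Ifi27 and Xaf1, where 5.09% of all genes did. Both remaining KO libraries lay below every HET library for 4 genes, Ifi27, Ifi35, Isg20 and Xaf1, against 10.1% of all genes. The summed level of all 38 genes was 297, 911 and 254 CPM in KO replicates 1 to 3, against 348, 538 and 446 CPM in HET replicates 1 to 3. Because KO replicate 2 was also the only library nearly without Tgfb1i1, Col1a2 and Thy1, its genotype, its cell composition and any other property of that culture cannot be told apart here.

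**Figure D1:**
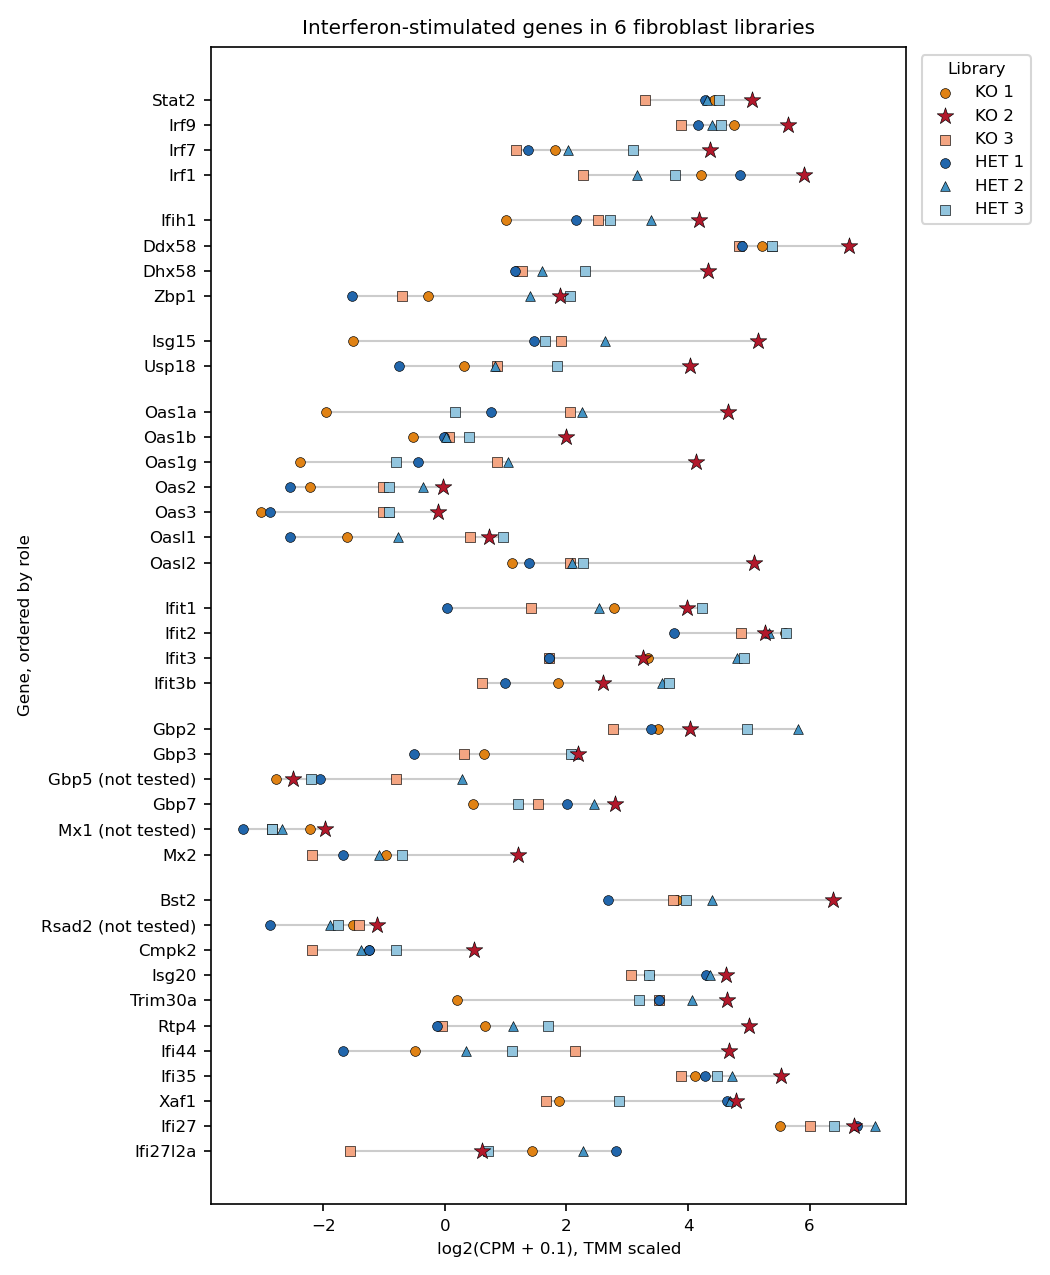
Level of each of the 38 genes in every library, as log2(CPM + 0.1) on the horizontal axis, with genes grouped by role from top to bottom and 1 symbol per library. The star of KO replicate 2 is at the right-hand end for most genes, and for the 4 Ifit genes HET replicate 3 is at the right-hand end.

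The 4 transcription factors of the set were each highest in KO replicate 2, as were 26.3% of all tested genes. Stat2, a subunit of ISGF3, stood at 21.4, 33.1 and 9.63 CPM in KO replicates 1 to 3, against 19.2, 19.8 and 22.8 CPM in HET replicates 1 to 3. Irf9, its DNA-binding subunit, stood at 26.9, 50.0 and 14.6 CPM in KO replicates 1 to 3, against 17.8, 20.9 and 23.2 CPM in HET replicates 1 to 3. For these ISGF3 subunits KO replicate 2 was at 1.46 and 1.85 times the next library. Irf7, which amplifies type I interferon production and is itself induced by it, stood at 3.41, 20.4 and 2.14 CPM in KO replicates 1 to 3, against 2.48, 3.95 and 8.47 CPM in HET replicates 1 to 3. Irf1, an early target of interferon-gamma, stood at 18.4, 59.7 and 4.72 CPM in KO replicates 1 to 3, against 28.7, 8.85 and 13.7 CPM in HET replicates 1 to 3. For these 2 factors KO replicate 2 exceeded the next library 2.40-fold and 2.08-fold, and KO replicate 3 was the lowest library for all 4. Irf7 overlaps Phrf1 on the other strand and Irf9 overlaps Rnf31 on the same strand, and the sources used here do not say how such reads were counted. Phrf1 varied less between libraries (58.8 to 99.7 CPM), and Rnf31 stood at 9.24 to 14.2 CPM.

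Of the 4 nucleic acid sensors in the set, 3 were highest in KO replicate 2, against 26.3% of all tested genes. Ifih1, which encodes the long double-stranded RNA sensor MDA5, stood at 1.91, 18.1 and 5.63 CPM in KO replicates 1 to 3, against 4.36, 10.4 and 6.43 CPM in HET replicates 1 to 3. Ddx58, which encodes RIG-I, the sensor of RNA with an uncapped phosphorylated end, stood at 37.1, 99.8 and 28.4 CPM in KO replicates 1 to 3, against 29.5, 41.7 and 41.7 CPM in HET replicates 1 to 3. Ddx58 was the most abundant of the helicases and stood highest in KO replicate 2, 2.39-fold above the next library. Dhx58, which encodes their relative LGP2, stood at 2.14, 20.0 and 2.30 CPM in KO replicates 1 to 3, against 2.12, 2.93 and 4.86 CPM in HET replicates 1 to 3. Zbp1, a sensor of left-handed nucleic acid that can trigger necroptosis, stood at 0.728, 3.62 and 0.515 CPM in KO replicates 1 to 3, against 0.248, 2.53 and 4.08 CPM in HET replicates 1 to 3. LGP2 was 4.12-fold above the next library in KO replicate 2. Zbp1 was instead high in KO replicate 2 and in HET replicates 2 and 3, and low in the other KO libraries and HET replicate 1.

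Isg15, a ubiquitin-like modifier joined to many proteins after interferon, stood at 0.250, 35.6 and 3.65 CPM in KO replicates 1 to 3, against 2.66, 6.09 and 3.02 CPM in HET replicates 1 to 3. Usp18, the protease that removes ISG15 and dampens receptor signalling, stood at 1.14, 16.2 and 1.71 CPM in KO replicates 1 to 3, against 0.496, 1.68 and 3.49 CPM in HET replicates 1 to 3. Both stood highest in KO replicate 2, by 5.85-fold and 4.63-fold over the next library, and the other KO libraries lay within or under the HET range for Isg15 and within it for Usp18. Isg15 was lowest in KO replicate 1, so both its highest and its lowest level carried the KO label.

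The oligoadenylate synthetases make short oligoadenylates on double-stranded RNA, and these activate the nuclease RNase L. Oas1a lies at chr5:120896256-120907521 (GRCm38) and stood at 0.159, 25.1 and 4.04 CPM in KO replicates 1 to 3, against 1.59, 4.69 and 1.02 CPM in HET replicates 1 to 3. Oas1g, at chr5:120876142-120887613, stood at 0.0910, 17.4 and 1.71 CPM in KO replicates 1 to 3, against 0.638, 1.96 and 0.471 CPM in HET replicates 1 to 3. Both were highest in KO replicate 2, by 5.36-fold and 8.85-fold over the next library, and lowest in KO replicate 1, where 3 counts correspond to 0.0683 CPM. For Oas1g the log2 fold change was 2.63 ± 1.60 (SE), and edgeR's quasi-likelihood test with Benjamini-Hochberg adjustment gave an adjusted p of 0.630. Oas1a and Oas1g share 57.6% and 45.2% of their 50-base stretches, so reads could have been split between them and their separate levels are uncertain. Oas1b stood at 0.592, 3.87 and 0.952 CPM in KO replicates 1 to 3, against 0.886, 0.910 and 1.22 CPM in HET replicates 1 to 3. The GENCODE annotation calls Oas1b a polymorphic pseudogene, since its coding state differs between mouse strains. Oasl2, which encodes a synthetase with ubiquitin-like domains and lies at chr5:114896936-114912234, stood at 2.05, 34.0 and 4.04 CPM in KO replicates 1 to 3, against 2.52, 4.18 and 4.71 CPM in HET replicates 1 to 3. KO replicate 2 exceeded the next library 3.19-fold for Oas1b and 7.22-fold for Oasl2. For Oasl2 the log2 fold change was 1.81 ± 1.05 (SE), and edgeR's quasi-likelihood test with Benjamini-Hochberg adjustment gave an adjusted p of 0.619. The longer synthetases were low everywhere. Oas2 stood at 0.114, 0.878 and 0.397 CPM in KO replicates 1 to 3, against 0.0708, 0.683 and 0.431 CPM in HET replicates 1 to 3. Oas3 stood at 0.0227, 0.827 and 0.397 CPM in KO replicates 1 to 3, against 0.0354, 0.427 and 0.431 CPM in HET replicates 1 to 3. Oasl1, which in mice restrains translation of Irf7, stood at 0.228, 1.55 and 1.23 CPM in KO replicates 1 to 3, against 0.0708, 0.483 and 1.84 CPM in HET replicates 1 to 3. Oas2 and Oas3 had their highest level in KO replicate 2 by less than 2-fold, and Oasl1 was highest in HET replicate 3.

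The Ifit genes, whose products bind RNA or translation factors and block viral protein synthesis, did not follow the synthetases. Ifit1 stood at 6.76, 15.7 and 2.58 CPM in KO replicates 1 to 3, against 0.921, 5.72 and 18.8 CPM in HET replicates 1 to 3. Ifit2 stood at 48.1, 38.1 and 29.2 CPM in KO replicates 1 to 3, against 13.6, 40.2 and 48.8 CPM in HET replicates 1 to 3. All Ifit genes were highest in HET replicate 3, and KO replicate 2 lay in the middle of the libraries for Ifit2 and Ifit3. Ifit3, at chr19:34583531-34588731, stood at 10.03, 9.43 and 3.17 CPM in KO replicates 1 to 3, against 3.19, 27.9 and 30.1 CPM in HET replicates 1 to 3. For Ifit3 the log2 fold change was -1.43 ± 0.85 (SE), and edgeR's quasi-likelihood test with Benjamini-Hochberg adjustment gave an adjusted p of 0.624. Ifit3b, at chr19:34607970-34613401, stood at 3.55, 5.97 and 1.43 CPM in KO replicates 1 to 3, against 1.88, 11.8 and 12.8 CPM in HET replicates 1 to 3. For Ifit3b the log2 fold change was -1.27 ± 0.82 (SE), and edgeR's quasi-likelihood test with Benjamini-Hochberg adjustment gave an adjusted p of 0.644. HET replicates 2 and 3 lay above every other library for Ifit3 and Ifit3b, and HET replicate 1 lay with the low KO libraries, so the groups overlapped. Ifit3 and Ifit3b are neighbouring copies on chromosome 19 that share 51.2% and 44.5% of their 50-base stretches, and their separate levels are uncertain.

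**Figure D2:**
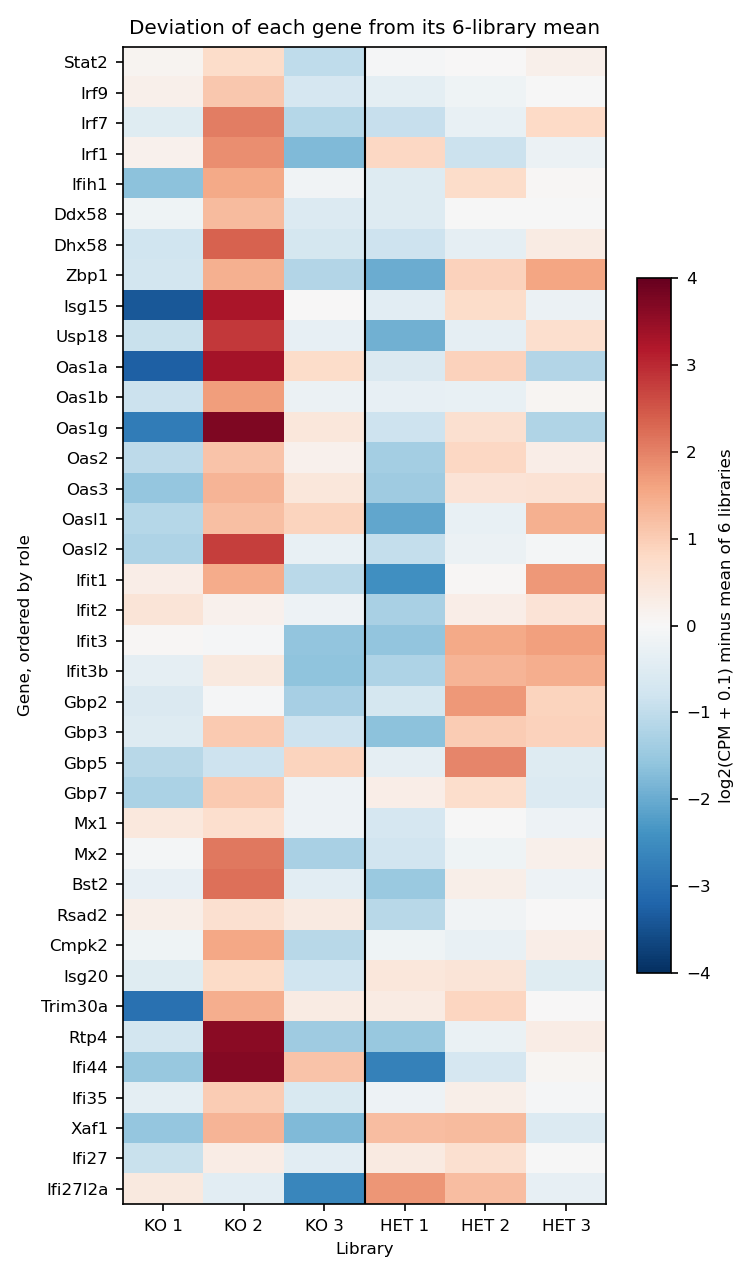
Deviation of each gene from its mean over the 6 libraries, in log2(CPM + 0.1), with the 3 KO libraries left of the line and the 3 HET libraries right of it. The KO 2 column holds the highest value in 28 of the 38 rows, and a HET column holds it in the Ifit rows and in those of Gbp2, Gbp5, Ifi27 and Ifi27l2a, Zbp1 and Oasl1.

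The guanylate-binding proteins are large GTPases that act on membranes around pathogens and respond strongly to interferon-gamma. Gbp2, at chr3:142620602-142638008, stood at 11.3, 16.3 and 6.66 CPM in KO replicates 1 to 3, against 10.3, 56.1 and 31.3 CPM in HET replicates 1 to 3. For Gbp2 the log2 fold change was -1.51 ± 0.65 (SE), and edgeR's quasi-likelihood test with Benjamini-Hochberg adjustment gave an adjusted p of 0.583. This was the smallest p of the set before adjustment (0.0550), and HET replicate 1 lay among the KO libraries. Gbp3 stood at 1.46, 4.44 and 1.15 CPM in KO replicates 1 to 3, against 0.602, 4.32 and 4.12 CPM in HET replicates 1 to 3. Gbp7 stood at 1.27, 6.82 and 2.78 CPM in KO replicates 1 to 3, against 3.93, 5.35 and 2.20 CPM in HET replicates 1 to 3. Both were highest in KO replicate 2 by less than 2-fold, and KO replicate 1 or HET replicate 1 was lowest. Gbp5 did not pass the filter on low counts, at 0.0455, 0.0775 and 0.476 CPM in KO replicates 1 to 3, against 0.142, 1.11 and 0.118 CPM in HET replicates 1 to 3. Its highest levels were in HET replicate 2 and KO replicate 3, the libraries with the highest leukocyte markers, and whether leukocytes take part in this was not tested. The Mx GTPases block viral nucleocapsids. Mx2, which the annotation calls a polymorphic pseudogene, stood at 0.409, 2.19 and 0.119 CPM in KO replicates 1 to 3, against 0.212, 0.370 and 0.510 CPM in HET replicates 1 to 3. Mx1 did not pass the filter, at 0.114, 0.155 and 0.0396 CPM in KO replicates 1 to 3, against 0, 0.0569 and 0.0392 CPM in HET replicates 1 to 3. Mx2 was 4.31-fold above the next library in KO replicate 2, while Mx1 had at most 6 counts in any library.

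Among the other effectors, 8 of the 10 tested were highest in KO replicate 2, against 26.3% of all tested genes. Bst2, at chr8:71534255-71537456, encodes tetherin, which holds budding virus at the cell surface, and stood at 14.1, 83.1 and 13.4 CPM in KO replicates 1 to 3, against 6.30, 20.9 and 15.6 CPM in HET replicates 1 to 3. For Bst2 the log2 fold change was 1.37 ± 0.84 (SE), and edgeR's quasi-likelihood test with Benjamini-Hochberg adjustment gave an adjusted p of 0.633. Rtp4, at chr16:23520291-23614222, encodes a receptor-transporting protein and stood at 1.48, 31.9 and 0.872 CPM in KO replicates 1 to 3, against 0.815, 2.08 and 3.14 CPM in HET replicates 1 to 3. For Rtp4 the log2 fold change was 2.504 ± 1.42 (SE), and edgeR's quasi-likelihood test with Benjamini-Hochberg adjustment gave an adjusted p of 0.613. Rtp4 had the largest excess of the set over the next library, 10.2-fold, but it spans Masp1 on the other strand. Masp1, a complement protease gene, was also highest in KO replicate 2, at 75.0 CPM against 8.41 to 27.7 CPM in the other libraries. The library kit keeps strand, but the sources used here do not say whether the counting used it, so reads of Rtp4 and Masp1 may not be separate. Ifi44, at chr3:151730922-151749960, stood at 0.614, 25.4 and 4.32 CPM in KO replicates 1 to 3, against 0.212, 1.17 and 2.04 CPM in HET replicates 1 to 3. For Ifi44 the log2 fold change was 3.15 ± 1.41 (SE), and edgeR's quasi-likelihood test with Benjamini-Hochberg adjustment gave an adjusted p of 0.589. Ifi44 had the largest fitted fold change of the set, and KO replicate 1 lay within the HET range. Cmpk2, a mitochondrial nucleotide kinase, stood at 0.319, 1.29 and 0.119 CPM in KO replicates 1 to 3, against 0.319, 0.284 and 0.471 CPM in HET replicates 1 to 3. Its neighbour Rsad2, which encodes viperin and makes an antiviral nucleotide, did not pass the filter, at 0.250, 0.362 and 0.278 CPM in KO replicates 1 to 3, against 0.0354, 0.171 and 0.196 CPM in HET replicates 1 to 3. Every KO library lay above every HET library for Rsad2, at counts of 7 to 14 in KO and 1 to 6 in HET libraries. The same held for 8.1% of all tested genes, to which Rsad2 does not belong.

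Of the remaining effectors, Ifi35, a partner of Nmi, stood at 17.3, 46.2 and 14.7 CPM in KO replicates 1 to 3, against 19.4, 26.4 and 22.1 CPM in HET replicates 1 to 3. Isg20, an exonuclease, stood at 10.2, 24.6 and 8.21 CPM in KO replicates 1 to 3, against 19.6, 20.5 and 10.2 CPM in HET replicates 1 to 3. Xaf1, an antagonist of the apoptosis inhibitor XIAP, stood at 3.57, 27.6 and 3.05 CPM in KO replicates 1 to 3, against 24.9, 25.6 and 7.22 CPM in HET replicates 1 to 3. All 3 were highest in KO replicate 2, for Isg20 and Xaf1 by little, and KO replicates 1 and 3 lay below every HET library, though for Isg20 KO replicate 1 and HET replicate 3 were nearly equal. Trim30a, which in mice restrains NF-kB signalling, stood at 1.05, 24.9 and 11.3 CPM in KO replicates 1 to 3, against 11.4, 16.6 and 9.02 CPM in HET replicates 1 to 3. It was low in KO replicate 1 and highest in KO replicate 2, 1.498-fold above the next library. Ifi27, at chr12:103434211-103440239, stood at 45.8, 106 and 64.2 CPM in KO replicates 1 to 3, against 109.6, 134 and 84.0 CPM in HET replicates 1 to 3. For Ifi27 the log2 fold change was -0.61 ± 0.36 (SE), and edgeR's quasi-likelihood test with Benjamini-Hochberg adjustment gave an adjusted p of 0.621. Ifi27l2a, next to it at chr12:103442167-103443680, stood at 2.59, 1.42 and 0.238 CPM in KO replicates 1 to 3, against 6.91, 4.72 and 1.53 CPM in HET replicates 1 to 3. For Ifi27l2a the log2 fold change was -1.62 ± 0.92 (SE), and edgeR's quasi-likelihood test with Benjamini-Hochberg adjustment gave an adjusted p of 0.612. Ifi27 was abundant in every library, and Ifi27l2a was highest in HET replicate 1 and lowest in KO replicate 3.

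**Figure D3:**
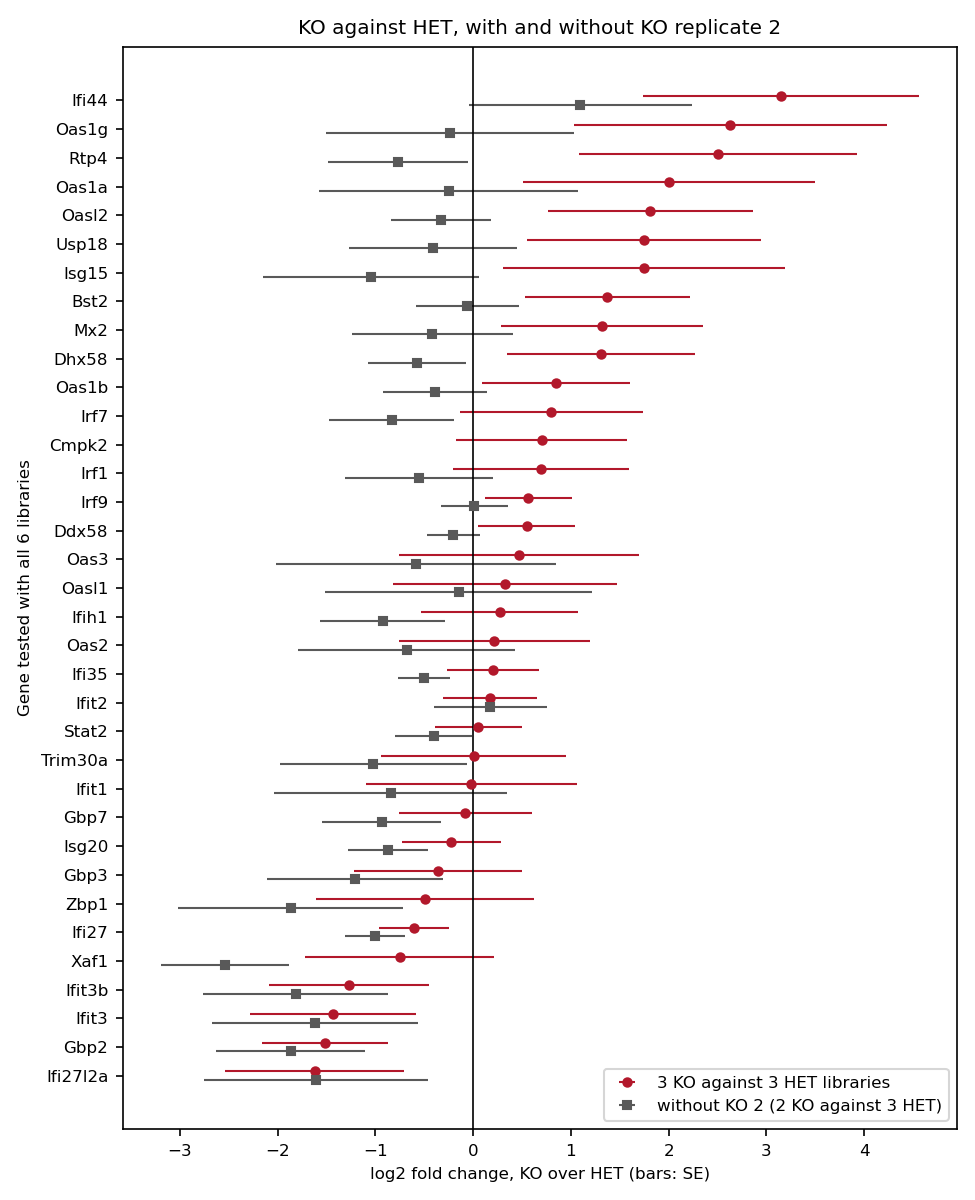
Fitted log2 fold change of KO over HET for the 35 tested genes with all 6 libraries (red circles) and, except for Cmpk2, without KO replicate 2 (grey squares), with bars of 1 SE. The median over the genes tested in each fit is 0.33 with all libraries and -0.68 without KO replicate 2, where Gbp5, not drawn, was tested as well.

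Levels were compared between genes per kilobase of exon, as CPM per kb of the union of GENCODE exons, which takes reads to be exonic. By the median over the 6 libraries Ifi27 was first, at 64.6 CPM per kb, followed by Bst2 at 16.4, Ifi35 at 12.0, Ifit2 at 9.98 and Isg20 at 7.997 CPM per kb. Mx1 was last at 0.0128 CPM per kb. In KO replicate 2 the order differed, with Bst2 first at 92.02 CPM per kb, Ifi27 next at 72.0 and Isg15 after it at 47.1. Isg15 ranged from 0.331 to 47.1 CPM per kb over the libraries, so it overlapped the range of most other genes, whereas Ifi27 stayed between 31.2 and 91.6. The deposited RPKM values were not used for this order because they scaled with the whole gene span, introns included, to within 0.848% for genes of the set with at least 50 counts.

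Interferon genes themselves were scarcely detected. Of 21 interferon ligand genes, 17 had 0 counts in all 6 libraries and Ifnz alone was tested. Ifnz, a type I interferon gene of mice, stood at 0.0683, 0.103 and 0.555 CPM in KO replicates 1 to 3, against 0.567, 0.995 and 0.745 CPM in HET replicates 1 to 3. For Ifnz the log2 fold change was -1.71 ± 0.85 (SE), and edgeR's quasi-likelihood test with Benjamini-Hochberg adjustment gave an adjusted p of 0.592. Every KO library lay below every HET library for Ifnz, as for 7.42% of all tested genes. Its levels were near the floor in KO replicates 1 and 2, and KO replicate 3 (0.555 CPM) and HET replicate 1 (0.567 CPM) were nearly equal. Ifnb1, the interferon-beta gene, had 2 counts in KO replicate 2 and 0 in the other libraries, under the floor of 3 counts. The receptor and signalling genes were measured in all libraries. Ifnar1 stood at 76.4, 63.5 and 75.4 CPM in KO replicates 1 to 3, against 75.5, 59.7 and 57.9 CPM in HET replicates 1 to 3. Ifnar2 stood at 33.4, 27.0 and 29.2 CPM in KO replicates 1 to 3, against 42.9, 32.6 and 31.9 CPM in HET replicates 1 to 3. For Ifnar1, KO replicate 2 lay inside the range of the others, and for Ifnar2 it was the lowest by little.

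Of the 17 receptor and signalling genes, none passed the adjusted threshold with edgeR or with DESeq2, and by edgeR 3 were lower in KO at an unadjusted p under 0.05, a level that 4.29% of all tested genes passed in that direction. Jak1, the kinase shared by interferon receptors, stood at 124, 186 and 214 CPM in KO replicates 1 to 3, against 476, 483 and 272 CPM in HET replicates 1 to 3. For Jak1 the log2 fold change was -1.23 ± 0.34 (SE), and edgeR's quasi-likelihood test with Benjamini-Hochberg adjustment gave an adjusted p of 0.579. Socs3, a feedback inhibitor of cytokine receptors, stood at 21.5, 27.0 and 15.7 CPM in KO replicates 1 to 3, against 78.4, 32.9 and 47.9 CPM in HET replicates 1 to 3. Stat3, which many cytokines activate, stood at 157, 153 and 97.7 CPM in KO replicates 1 to 3, against 274, 216 and 258 CPM in HET replicates 1 to 3. For these 3 genes every KO library lay below every HET library, as for 7.42% of all tested genes, and KO replicate 2 lay among or next to the other KO libraries. Ptpn2, a phosphatase that restrains cytokine signalling, lay the other way, as did 8.1% of all tested genes, at 22.2, 27.4 and 24.5 CPM in KO replicates 1 to 3, against 20.4, 15.9 and 18.0 CPM in HET replicates 1 to 3.

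The upstream sensors and adaptors outside the set gave 0 of 30 tested genes past the adjusted threshold with edgeR or with DESeq2 and a median log2 fold change of 0.08. KO replicate 2 was highest for 11 of the 30 and at least 2-fold above the next library for 2, against 26.3% and 3.93% of all tested genes. Rnaseh2a, a subunit of the enzyme that removes RNA from DNA hybrids, stood at 25.5, 40.2 and 16.4 CPM in KO replicates 1 to 3, against 16.2, 10.3 and 12.8 CPM in HET replicates 1 to 3. It was the only one of the 30 at an unadjusted p under 0.05 by edgeR, where 8.59% of all tested genes were. Adar, which edits double-stranded RNA, stood at 55.7, 68.4 and 50.5 CPM in KO replicates 1 to 3, against 38.04, 49.3 and 39.3 CPM in HET replicates 1 to 3. Mb21d1, which encodes the DNA sensor cGAS, stood at 12.1, 29.1 and 9.36 CPM in KO replicates 1 to 3, against 11.4, 3.92 and 6.63 CPM in HET replicates 1 to 3. These 3 genes were highest in KO replicate 2. For Rnaseh2a and Adar every KO library lay above every HET library, as for 8.1% of all tested genes. Ikbke, a kinase upstream of interferon production, stood at 10.2, 4.88 and 9.79 CPM in KO replicates 1 to 3, against 13.0, 13.8 and 14.7 CPM in HET replicates 1 to 3, lowest in KO replicate 2. Every KO library lay below every HET library for Ikbke, as for 7.42% of all tested genes. Aim2, a cytosolic DNA sensor named here after its values were seen, stood at 0.205, 15.9 and 0.991 CPM in KO replicates 1 to 3, against 0, 1.11 and 0.706 CPM in HET replicates 1 to 3.

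A further 66 interferon-induced genes were set beside the 38. Of 58 tested, KO replicate 2 was the highest library for 31 and at least 2-fold above the next for 15, against 26.3% and 3.93% of all tested genes. The median log2 fold change was 0.29 with all libraries and -0.40 without KO replicate 2. By edgeR none passed the adjusted threshold, and at an unadjusted p under 0.05 there were 2 higher and 3 lower in KO, where 4.3% and 4.29% of all tested genes were. Nlrc5, a transactivator of MHC class I genes, stood at 6.14, 19.4 and 0.436 CPM in KO replicates 1 to 3, against 0.461, 0.853 and 0.471 CPM in HET replicates 1 to 3. Lgals9, which encodes galectin-9, stood at 74.1, 68.6 and 72.6 CPM in KO replicates 1 to 3, against 122, 149 and 116 CPM in HET replicates 1 to 3. DESeq2, which called 1.36% of all genes, called these 2, with adjusted p-values of 0.0316 for Nlrc5 and 0.0139 for Lgals9. Nlrc5 was highest in KO replicate 2, and Lgals9 was lower in every KO than in every HET library. Ifitm2 stood at 214, 138 and 126 CPM in KO replicates 1 to 3, against 230.1, 239 and 345 CPM in HET replicates 1 to 3. Ifitm3, like Ifitm2 a membrane protein that blocks viral entry, stood at 281, 289 and 129 CPM in KO replicates 1 to 3, against 429, 378 and 506 CPM in HET replicates 1 to 3. These abundant genes, like Lgals9, lay below the HET range in every KO library. That held for 4 of the 58 tested genes, against 7.42% of all tested genes. The immunoproteasome subunit gene Psmb8, chosen after its values were seen, stood at 2.62, 56.6 and 3.21 CPM in KO replicates 1 to 3, against 9.71, 5.46 and 3.61 CPM in HET replicates 1 to 3.

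**Figure D4:**
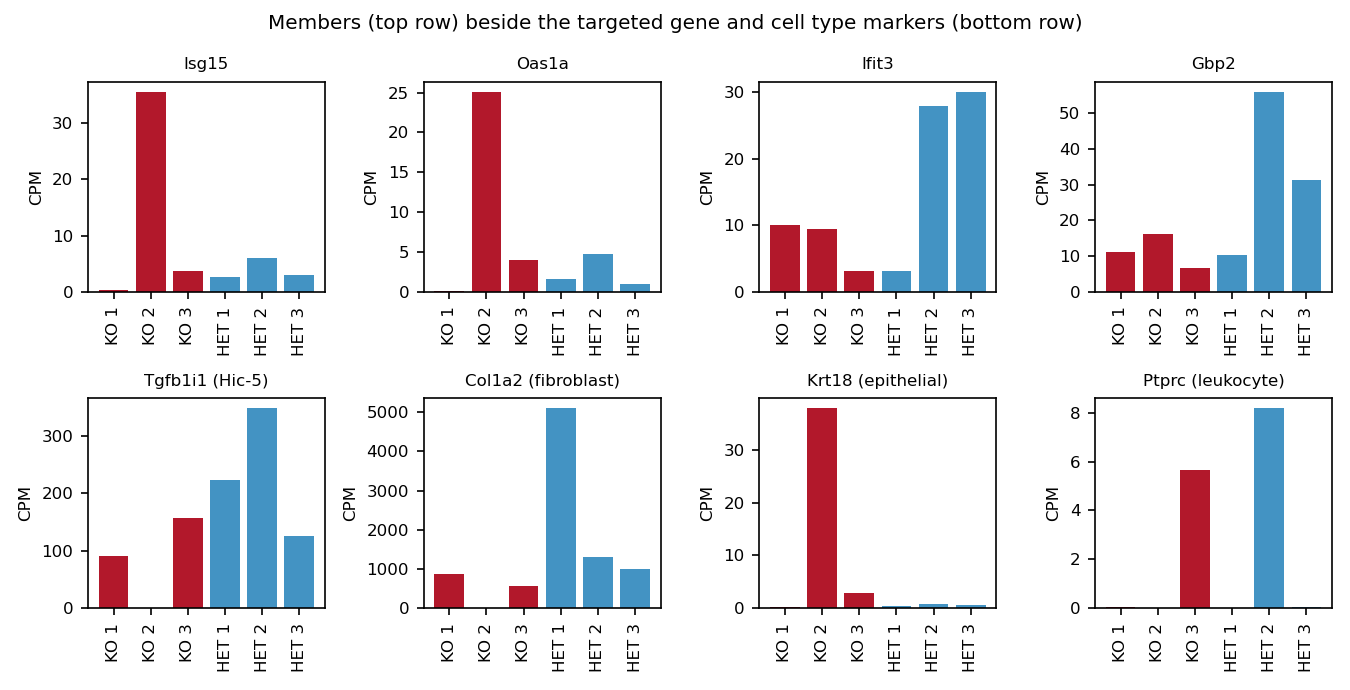
Level in CPM of 4 genes of the set (top row) and of Tgfb1i1 and 3 cell type markers (bottom row), with 1 bar per library, KO libraries in red and HET libraries in blue. The KO 2 bar is highest for Isg15, Oas1a and Krt18 and nearly absent for Tgfb1i1 and Col1a2, and Ptprc appears in KO 3 and HET 2.

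Leukocytes carry many of these transcripts, and their markers were set beside the result. Lyz2, the leukocyte marker with the highest level in any library, stood at 4.94, 4.44 and 1037 CPM in KO replicates 1 to 3, against 3.08, 1257 and 20.9 CPM in HET replicates 1 to 3. Ptprc, the pan-leukocyte gene, chosen after its values were seen, stood at 0.0455, 0 and 5.67 CPM in KO replicates 1 to 3, against 0, 8.19 and 0.0392 CPM in HET replicates 1 to 3. Both were high in KO replicate 3 and HET replicate 2. Of the 26 leukocyte markers, 11, 10 and 7 were at 0 in KO replicates 1 to 3, against 13, 5 and 9 in HET replicates 1 to 3. KO replicate 2 thus resembled KO replicate 1 and HET replicate 1 in these markers, and the part of leukocytes in the levels of interferon-stimulated genes was not tested. Without the 2 libraries with the highest Ptprc, 27 of the 35 genes had a log2 fold change above 0, and the median over all genes of that fit was -0.0072. KO replicate 2 weighed more in that fit, with only KO replicate 1 beside it, so the count does not test the part of leukocytes. Of the 8 tested epithelial markers 7 were highest in KO replicate 2, as given above, and their part in its levels of interferon-stimulated genes was not tested. Endothelial markers summed to 17.5, 29.1 and 29.4 CPM in KO replicates 1 to 3 and to 54.3, 68.0 and 39.9 CPM in HET replicates 1 to 3. Flt1, the one with the highest level in any library, stood at 4.32, 27.7 and 25.6 CPM in KO replicates 1 to 3, against 51.5, 60.5 and 35.5 CPM in HET replicates 1 to 3. Flt1 made up most of the sum in every library except KO replicate 1, so the sum describes Flt1 more than the list. Kdr was highest in KO replicate 1, at 12.8 CPM against 0.177 to 2.51 CPM in the other libraries. Mcam, the pericyte marker with the highest level in any library, stood at 18.8, 76.3 and 16.4 CPM in KO replicates 1 to 3, against 17.4, 76.3 and 9.30 CPM in HET replicates 1 to 3, high in KO replicate 2 and HET replicate 2. The other tested pericyte markers went the other way in KO replicate 2. Rgs5, Cspg4, Des and Notch3 were each lowest there, at 0.155, 0.0517, 0.0258 and 0.413 CPM.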

How the data were processed

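RNA from 6 libraries, 3 labelled KO and 3 labelled HET, was measured by ribosomal-RNA-depleted stranded RNA-seq, per the labels' protocols. The submitters' processing notes name cutadapt 1.2.1, Bowtie2 and Partek, and the builds GRCm38 and mm10. The authors deposited 1 estimated count per gene and library, unscaled between libraries. A table of RPKM, which divides counts by gene length and library total, was also deposited by the authors. How reads over overlapping genes, introns or repeated sequence were counted was not given in the sources used here. Of 48408 rows per table, 30 with a biotype word in place of the gene were left out, and 7 repeated symbols were summed.

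Estimated counts were rounded to whole numbers, filtered with filterByExpr, scaled by TMM factors and tested, KO against HET and two-sided, with the quasi-likelihood test of edgeR 4.0.16 in R 4.3.3 across all 17584 genes, adjusted by Benjamini-Hochberg and called under 0.05. The test was checked on simulated data. The alternatives were DESeq2 1.42.0, other scalings and filters, limma 3.58.1 (voom, and RPKM on a log2 scale with 1 or 0.1 added), a block for the number that 2 titles share, and fits without 1 or 2 libraries. Libraries were grouped by label and numbered in accession order, and chi-square per degree of freedom between libraries of a label was 169 to 372, so none was the same library deposited again, which does not show that they came from separate mice. Positions, exons and shared 50-base stretches came from GENCODE M21 on GRCm38, and promoters from RefSeq on GRCm38.p6.

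The members and gene lists were chosen with earlier results of these data known. Per-library values were given for every member, full statistics for the 10 with the smallest unadjusted p, and in other lists up to 4 genes with the smallest unadjusted p with Ifnb1, Ifnar1 and Ifnar2, or, for cell type markers, those with the highest level in any library. Tgfb1i1 was given as a check of the labels, and Phrf1, Rnf31 and Masp1 because they overlap members. Other genes outside this rule are said to have been chosen after their values were seen. A further gene that the rule names is not reported here.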

Additional observations from a re-analysis of the deposited data

How the results depend on the processing

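No interferon-stimulated gene passed the adjusted threshold under any of the 19 alternatives. DESeq2 called 240 genes in all, where edgeR called 0. Genes of the set at an unadjusted p under 0.05 numbered 0 with all libraries by edgeR, 2 without the filter on low counts, 2 by DESeq2, 1 on log2(RPKM + 1) without a filter and 0 to 4 when each library was left out in turn (4 for KO replicate 1, 3 for HET replicate 1, 2 for KO replicate 2, 1 for KO replicate 3). The median log2 fold change of the set lay between -0.68 (without KO replicate 2) and 0.71 (without KO replicate 1) when single libraries were left out. It was 0.91 without the HET and KO libraries that share a title number and 0.85 without the 2 with the highest Ptprc. All tested genes at an unadjusted p under 0.05 numbered 648 (without HET replicate 2) to 2281 (without KO replicate 3), 917 without KO replicate 2, and 987 without the 2 libraries with the highest Ptprc. Scaling by library size alone moved the median of all genes to 0.15 and gave 1200 genes higher and 532 lower in KO at that level, against 756 and 755. The count of genes with KO replicate 2 highest was 26 under TMM, DESeq2 factors, library size alone and RPKM, and that of genes at least 2-fold above the next library was 15, 15, 18 and 18. Over all tested genes the shares in the same order were 26.3%, 26.5%, 33.5% and 32.5% highest. For 2-fold they were 3.93%, 3.95%, 5.15% and 4.98%, so the shares of all genes rose as well under library size alone and RPKM.

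Of the 35 tested genes, 20 had a log2 fold change of the other sign without KO replicate 2, and 9 kept their sign in every alternative that tested them, Cmpk2 not being tested without KO replicate 2, under the filter at 1 CPM or under the filters on RPKM. Where leaving out a library turned the sign, the range over the 6 such fits was -0.84 to 1.33 for Ifit1, -0.20 to 0.52 for Ifit2, -0.50 to 0.49 for Ifi35, -0.93 to 0.74 for Ifih1, -0.20 to 0.86 for Ddx58, -1.04 to 2.32 for Isg15, -0.87 to 0.053 for Isg20, -0.25 to 2.90 for Oas1a, -0.39 to 1.27 for Oas1b and -0.24 to 3.51 for Oas1g. It was -0.68 to 0.88 for Oas2, -0.59 to 1.03 for Oas3, -0.21 to 1.82 for Oasl1, -0.33 to 2.33 for Oasl2, -0.42 to 1.83 for Mx2, -0.41 to 2.54 for Usp18, -0.55 to 1.30 for Irf1, -0.83 to 1.43 for Irf7, -0.40 to 0.41 for Stat2 and -0.058 to 1.77 for Bst2. It was -1.87 to 0.22 for Zbp1, -0.93 to 0.32 for Gbp7, -0.76 to 3.05 for Rtp4, -0.57 to 1.77 for Dhx58 and -1.02 to 0.55 for Trim30a. Other alternatives also turned signs. Without the HET and KO libraries that share a title number the values were -0.16 for Trim30a, 0.22 for Gbp3, 0.60 for Zbp1 and 1.72 for Ifit1. Without the 2 libraries with the highest Ptprc they were -0.13 for Oasl1, 0.18 for Ifit1, 0.19 for Isg20, 0.30 for Gbp3 and 0.36 for Gbp7. Library size alone gave 0.11 for Gbp7 and 0.12 for Ifit1. On log2(RPKM + 0.1) Trim30a was at -0.11 and Ifit1 at 0.37, and on log2(RPKM + 1), filtered or not, Gbp7 was at 0.0064 and Ifit1 at 0.085. By limma-voom the values were -0.055 for Stat2, -0.10 for Oas3, -0.25 for Ifih1, -0.30 for Isg15, -0.97 for Trim30a and 0.59 for Ifit1. Without the filter on low counts Ifit1 was at 0.011. The causes were not tested.

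HET replicate 3 and KO replicate 3 share a title number. A fit with that number as a replicate block gave 1055 genes and 1 gene of the set at an unadjusted p under 0.05, a median of 0.45 over the set, -0.075 for Stat2 and 0.49 for Ifit1. No paired analysis was possible because the other title numbers stand on 1 library each. With 3 libraries a label, and 1 of them standing apart, precision was limited more by the spread between libraries than by depth. Genes near 3 counts a library, such as Mx1, could not be compared.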
